A study of Homo sapiens with 2 samples.

Results

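The genes described here build, degrade, sense and anchor the cyclic nucleotides cAMP and cGMP. They were chosen by a rule on gene symbols, with earlier results of these data known. It covers numbered adenylyl cyclases (ADCY), phosphodiesterases with a number and a letter (PDE), and numbered A-kinase anchoring proteins (AKAP). It also covers catalytic and regulatory subunits of protein kinase A (PRKACA to PRKACG, PRKAR1A to PRKAR2B) and the protein kinase inhibitors PKIA, PKIB and PKIG. The rule took 58 of the 23352 genes in the deposited gene tables. Both tables come from A673, an established Ewing sarcoma cell line, a tumour line driven by the EWSR1-FLI1 fusion. The cells carried a lentiviral hairpin against RUNX3, a runt-family transcription factor, or a non-target hairpin. Virus collected at 72 hours was applied with polybrene at 6 µg/mL, and the cells were then kept in 0.4 µg/mL puromycin for 6 days. Each condition has 1 poly(A) library, titled as a pool, so the libraries show no spread between cultures, and both cell populations carry a hairpin vector and a selection marker.

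The labels contradict each other. The library titled for the hairpin sh813 has the non-target hairpin in its shRNA field, and the library titled NT has the RUNX3 hairpin there. The libraries are called 813Pool and NT_Pool after their titles, and taking the shRNA field instead would turn round every direction given. RUNX3 itself (chr1:25226002-25291501, hg19, minus strand) held 387 read pairs in 813Pool and 1391 in NT_Pool. Its level was 3.78-fold lower in 813Pool, which is the direction that the titles give. The tables held 23342660 and 24326135 read pairs for 813Pool and NT_Pool. All 8 Ewing sarcoma marker genes looked up were measured, among them CD99 at 98474 and 88396 pairs, while NR0B1, NKX2-2 and PAX7 were lower in 813Pool. Summed markers of HEK293, the line in which the virus was made, were 8.67 and 12.5 CPM (read pairs scaled to the library size). Of these 5 markers, GATA3 (33 and 93 pairs) was lower in 813Pool, and NEFL (73 and 122) and NEFM (105 and 75) were not called. The other 2, PAX2 and EMX2, held at most 1 pair in either library. Endothelial markers summed to 3.56 and 1.68 CPM, with KDR higher in 813Pool (52 and 5 pairs), CDH5 at 2 and 8 pairs, VWF at 5 and 8, and TEK at none. Leukocyte markers summed to 2.70 and 2.15 CPM. Neural markers summed to 396 and 531 CPM, most of it ENO2 (8175 and 11158 pairs), but NES (1155 and 300) and CHGA (46 and 14) were higher in 813Pool, SYP (321 and 848) was lower, and STMN2 held none. Fibroblast markers summed to 3526 and 2876 CPM, most of it COL1A2 (64277 and 50606 pairs), with none of the 6 measured called. PDGFRB held 9382 and 4805 pairs, THY1 8443 and 6480, and COL1A1 3998 and 4685. DCN held 124 and 146, LUM 33 and 23, PDGFRA 3 and 4, and FAP 2 and 9. The part of other cells in the results was not tested.

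Adenylyl cyclases make cAMP when receptors at the cell surface act through the stimulatory G protein. cAMP frees the catalytic subunits of protein kinase A from the regulatory subunits that hold them, anchoring proteins place the kinase near its targets, and small heat-stable inhibitor proteins block the free catalytic subunit. Phosphodiesterases end the signal by hydrolysing cAMP, cGMP or both, and which of them a cell makes sets how long and where each nucleotide persists.

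Of the 58 genes, 35 reached 1 CPM in at least 1 library and are called measured. A gene was called higher or lower where its level differed by 2-fold or more and the 95% interval of the ratio lay wholly beyond 1.5-fold. This interval covers counting error only. By that rule 4 genes were higher in 813Pool (PDE4B, AKAP10, PDE1A and PDE8A), 3 were lower (PDE9A, PDE1B and PRKAR1B), and 28 were neither. Of all 12254 measured genes 11.6% were called, 8.13% higher and 3.48% lower. Of those calls 70.0% were higher, and 81.5% were when libraries were scaled by plain totals, which moved the median log2 fold of all measured genes from 0.01 to 0.15. The median log2 fold over the 35 measured members was 0.13, against 0.01 over all measured genes, with 22 members above 0 and 13 below. At 1.5-fold or more with an interval beyond no difference, 7 members were higher and 6 lower, where 19.8% and 11.2% of all measured genes were. No p-value can be had from 1 library a group. In bulk RNA, fewer cells that express a gene and less of its RNA in each cell cannot be told apart.

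**Figure D1:**
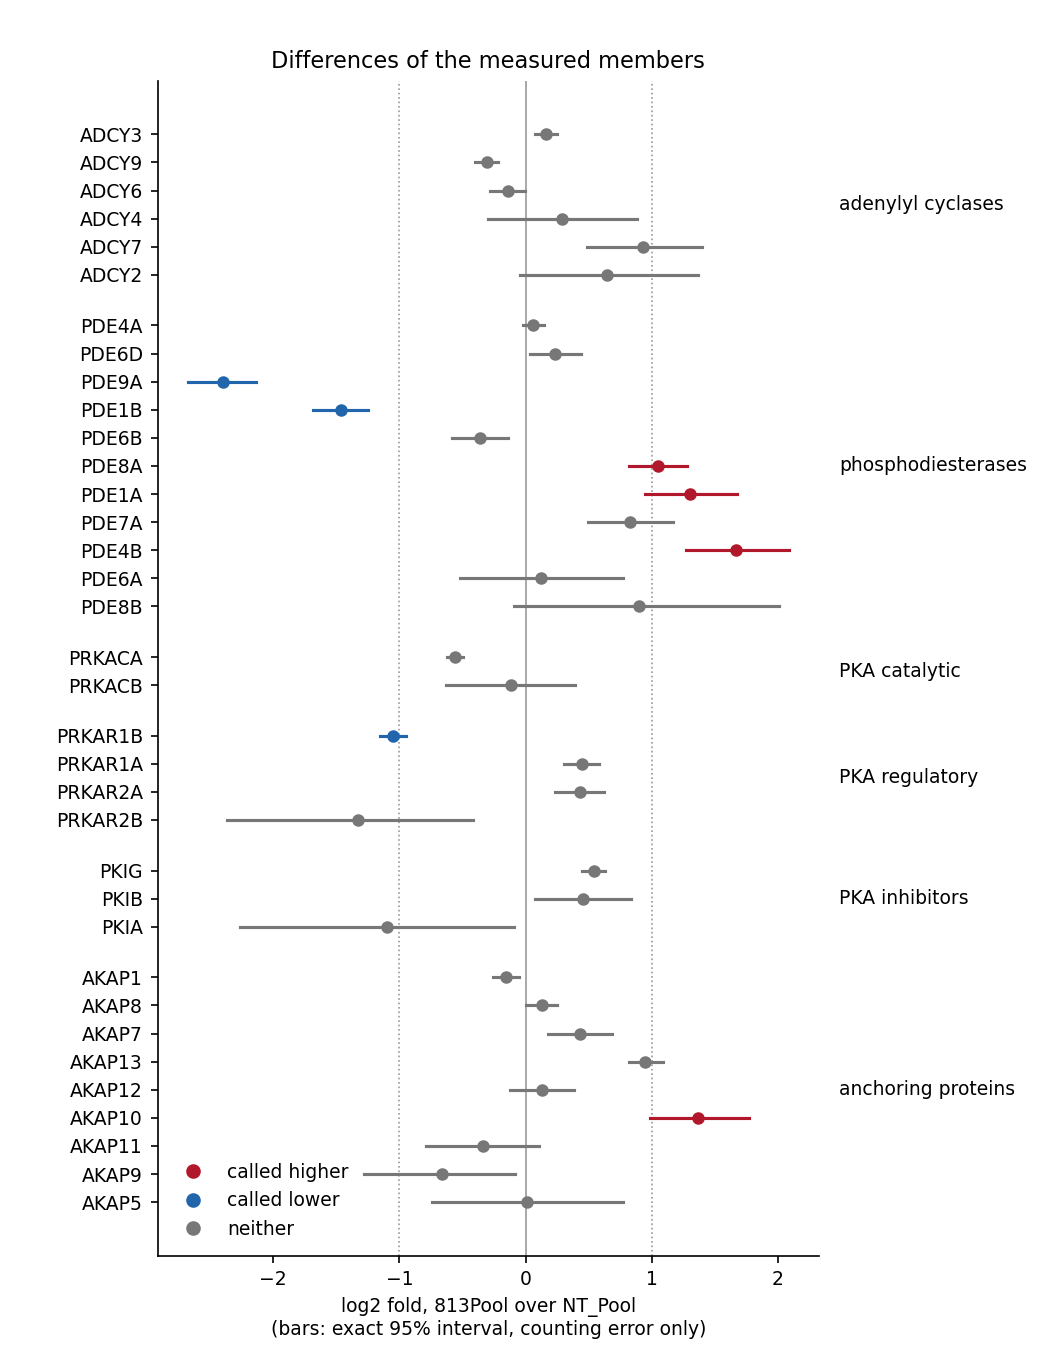
Log2 fold of each measured member, 813Pool over NT_Pool, with its 95% counting interval, grouped by family. The called genes lie between -2.40 for PDE9A and 1.66 for PDE4B, and the cyclases, catalytic subunits and inhibitors have no called gene.

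Adenylyl cyclases showed no called gene. Of the 10 cyclases 6 were measured, and their summed level was 38.2 CPM per kilobase in 813Pool and 38.0 in NT_Pool. ADCY3, a membrane cyclase known from olfactory cilia, was the most abundant per kilobase and held 2353 and 2000 pairs, a log2 fold of 0.16 (95% interval 0.07 to 0.25). Its gene overlaps CENPO in exon records 19 to 21 of its 21. Reads of the 2 genes cannot be told apart in these records without a stated strand setting. Whether the gene counts of ADCY3 include or leave out reads of these records was not tested. ADCY9, a widely expressed cyclase that forskolin activates poorly, held 1752 and 2059 pairs, a log2 fold of -0.31 (-0.40 to -0.22), and its log2 fold was below 0 in 11 of the 11 exon records with 20 reads or more. ADCY6, a cyclase that calcium inhibits, held 841 and 880 pairs. Together these 3 enzymes made up most of the cyclase level: ADCY3 held 57.3% and 51.6% of it, ADCY9 24.3% and 30.2%, and ADCY6 13.4% and 14.9%.

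The other measured cyclases were scarce. ADCY7, a cyclase known from blood cells, held 127 pairs in 813Pool and 63 in NT_Pool, a log2 fold of 0.93 (0.49 to 1.40). It stayed short of 2-fold, but it was called higher when libraries were scaled by their plain totals (log2 fold 1.07), by totals without the 20 most abundant genes (1.06) or by the deposited RPKM values (1.06). ADCY4 held 58 and 45 pairs and ADCY2 48 and 29, with intervals that span 0. ADCY1 and ADCY5, calcium-stimulated and calcium-inhibited cyclases, were under 1 CPM with 15 and 15 pairs and 7 and 6 pairs. The soluble cyclase ADCY10 held 1 pair in each library, and ADCY8 none, where a count of 0 allows up to 3 pairs.

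**Figure D2:**
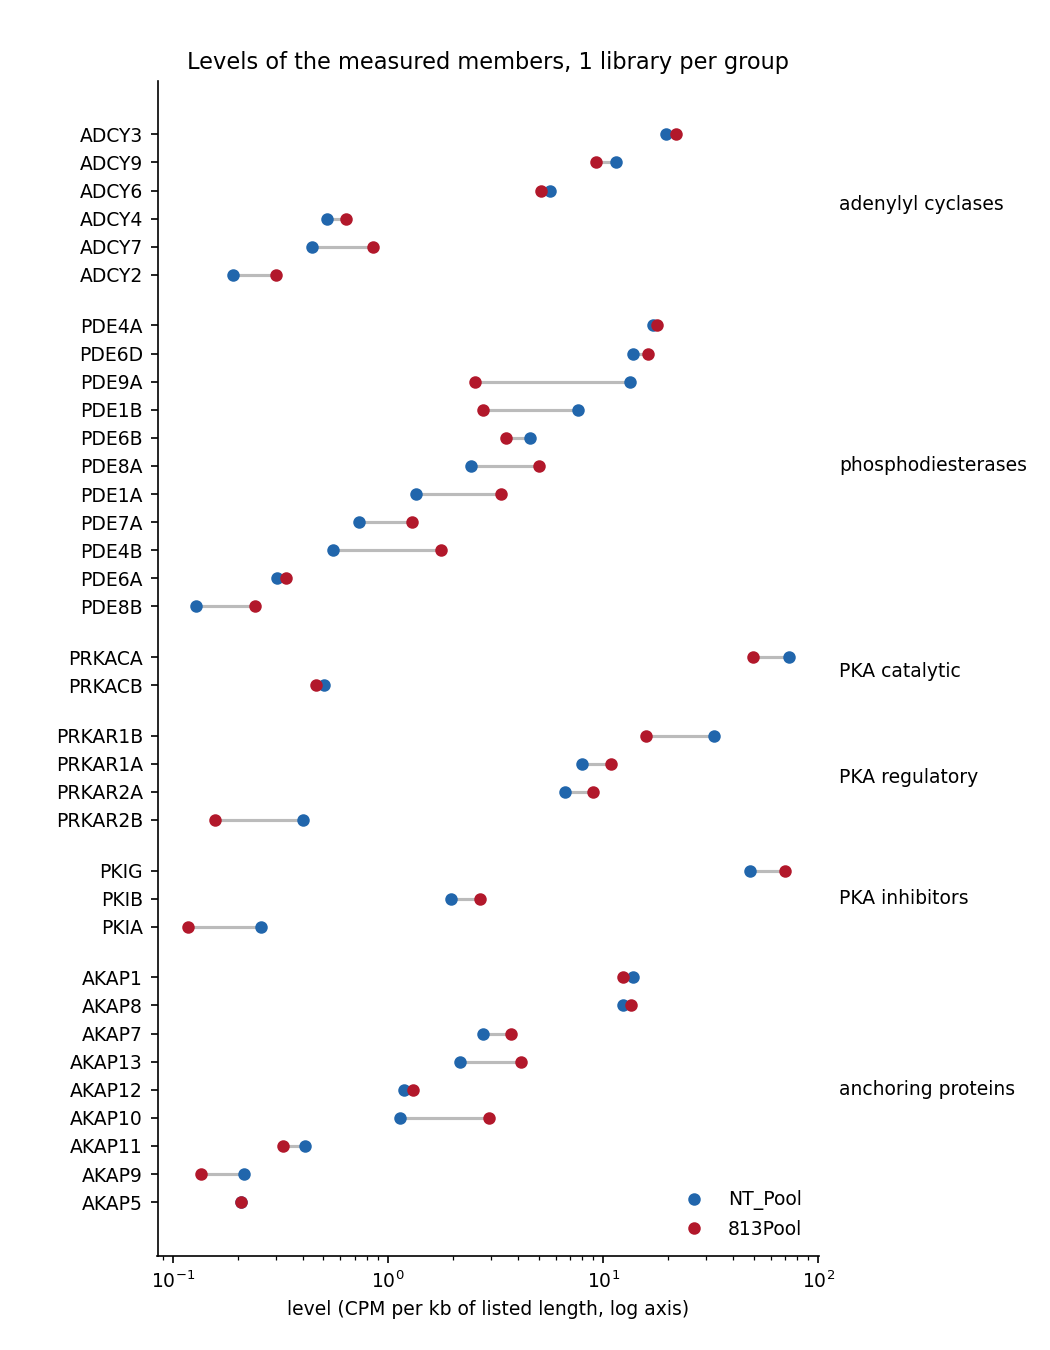
Level of each measured member in the 2 libraries, in CPM per kilobase of gene length on a log axis, grouped by family. PRKACA and PKIG stand at the top of the catalytic and inhibitor families in both libraries, and the paired points are farthest apart for PDE9A.

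Protein kinase A subunits differed in their balance. The catalytic subunit PRKACA, the main catalytic isoform in most tissues, held 3291 pairs in 813Pool and 4609 in NT_Pool, or 135 and 199 CPM. The log2 fold was -0.56 (-0.63 to -0.50), under the 2-fold rule, and below 0 in all 11 exon records with 20 reads or more. PRKACB, the second broadly expressed catalytic subunit, was far less abundant with 66 and 68 pairs, most of its exon reads (102 and 93) lying in the last of its 18 records. PRKACA held 99.0% and 99.3% of the summed catalytic level per kilobase. PRKACG, an intronless testis gene, held 2 pairs and 1 pair.

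Among the regulatory subunits, PRKAR1B was lower and its close relative PRKAR1A was not. PRKAR1B (chr7:588834-767313, hg19, minus strand) encodes the type I beta subunit, known mainly from neurons. It held 1151 pairs in 813Pool and 2266 in NT_Pool, or 47.1 and 97.6 CPM, a level 2.07-fold lower in 813Pool (log2 fold -1.05, -1.16 to -0.95). That value lies close to the 2-fold threshold, and the call ended with plain totals (-0.92), with totals without the 20 most abundant genes (-0.92), with the RPKM values (-0.92), with exon sums (-0.95) and after detrending, the subtraction of a smooth curve of fold on GC and length fitted over all measured genes (-0.72). PRKAR1A, the broadly expressed type I alpha subunit whose loss causes Carney complex, held 1019 and 710 pairs, a log2 fold of 0.45 (0.31 to 0.59). Per kilobase, PRKAR1B stood 4.10 times above PRKAR1A in NT_Pool and 1.45 times above it in 813Pool.

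The type II subunits, which bind most anchoring proteins, also lay on opposite sides of 0. PRKAR2A held 522 and 368 pairs, a log2 fold of 0.43 (0.23 to 0.63), above 0 in 11 of 11 exon records with 20 reads or more. PRKAR2B held only 14 and 34 pairs, a log2 fold of -1.32 (-2.37 to -0.42). Its interval reaches inside 1.5-fold, so it was not called. It was called after detrending on GC and length (-1.64) and with undivided counts (-1.34), which enter each pair as 2 and so narrow the interval. The summed regulatory level was 35.8 CPM per kilobase in 813Pool and 47.8 in NT_Pool. Of it, PRKAR1B held 44.1% and 68.5%, PRKAR1A 30.4% and 16.7%, and PRKAR2A 25.02% and 13.9%.

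Along the PRKAR1B gene the difference was uneven in size and even in direction. All 16 exon records were lower in 813Pool, with log2 folds from -1.24 to -0.20. The first 5 records, at the 5′ end, ranged from -0.40 to -0.20 and the other 11 from -1.24 to -0.53. Record 3 (198 and 235 reads) overlaps a record of HEATR2, a neighbouring gene that itself held 3139 and 4180 pairs. The last record, which is the longest, held 948 and 2109 reads.

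The inhibitor proteins were led by PKIG. It held 2459 pairs in 813Pool and 1604 in NT_Pool, or 101 and 69.1 CPM, a log2 fold of 0.54 (0.45 to 0.63). Of the summed inhibitor level per kilobase, PKIG held 96.2% and 95.6%. Its first exon record held 99 and 110 reads (log2 fold -0.23), while the 5 others lay between 0.49 and 0.86, though record 1 did not depart from the rest by the exon rule given below for PDE1B. PKIB held 143 and 99 pairs (0.45, 0.08 to 0.84), and PKIA, the muscle and brain form, 12 and 25 pairs (-1.10, -2.26 to -0.09). Summed inhibitor level was 1.46 times the summed catalytic level in 813Pool and 0.686 times in NT_Pool. No single inhibitor or catalytic gene reached the 2-fold rule, and this ratio was computed after the levels were known.

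Phosphodiesterases held most of the calls. Of 24 symbols 11 were measured, with 3 higher, 2 lower and 6 neither. That is 45.5% called, against 11.6% of all measured genes. Their summed level was 55.3 CPM per kilobase in 813Pool and 62.2 in NT_Pool. PDE4A, a cAMP-specific enzyme, was the most abundant of them per kilobase. It held 2546 and 2316 pairs, a log2 fold of 0.06 (-0.02 to 0.14), so its level was nearly equal. Next came PDE6D, which despite its symbol is a prenyl-binding transport protein and no hydrolase, with 442 and 356 pairs (0.24, 0.03 to 0.44).

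PDE9A had the largest fold of all members. PDE9A (chr21:44073862-44195618, hg19, plus strand) encodes a high-affinity cGMP-specific enzyme. It held 137 pairs in 813Pool and 688 in NT_Pool, or 5.60 and 29.6 CPM. The level was 5.28-fold lower in 813Pool, a log2 fold of -2.40 (-2.68 to -2.14). All of its 22 exon records were lower there, with log2 folds from -3.05 to -1.49, so no stretch of the gene stood apart from the rest. Its share of the summed level of all 24 phosphodiesterase symbols, PDE6D included, was 4.57% and 21.5%.

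The PDE1 enzymes, which calcium and calmodulin activate and which hydrolyse both nucleotides, went opposite ways. PDE1B (chr12:54943177-54973023, hg19, plus strand), known from striatal neurons and macrophages, held 244 and 640 pairs, or 9.97 and 27.6 CPM. It was 2.76-fold lower in 813Pool (log2 fold -1.46, -1.69 to -1.25) and below 0 in 17 of 17 exon records. PDE1A (chr2:183007183-183387465, hg19, minus strand), known from smooth muscle, brain and sperm, held 232 and 89 pairs, or 9.48 and 3.83 CPM. It was 2.47-fold higher there (1.30, 0.95 to 1.68). PDE1C held 1 pair and 0. Per kilobase PDE1A stood at 1.20 times PDE1B in 813Pool and at 0.176 times in NT_Pool.

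Within PDE1A the first 3 exon records did not share the difference. They held 3, 11 and 10 reads in 813Pool against 7, 9 and 9 in NT_Pool. Records 4 and 5 held 53 and 68 reads against 15 and 16, and each record from 4 to 16 was higher in 813Pool. The last 2 records were near empty, with 3 and 5 reads against 2 and 6. These end records are too thin for a call. Within PDE1B, record 14 (chr12:54969776-54969884, hg19, 109 bases) held 51 and 72 reads, a log2 fold of -0.56 (-1.36 to 0.20), against -1.70 (-1.92 to -1.49) for the rest of the gene. It was the only 1 of 267 tested exon records in 28 member genes whose interval parted from that of its gene by 2-fold or more. That share is 0.375%, against 0.423% of all 92860 exon records tested.

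PDE4B (chr1:66258193-66840262, hg19, plus strand) had the highest fold of the members. It encodes a cAMP-specific enzyme known for its role in inflammation, and its gene makes long and short forms from different start sites. It held 225 pairs in 813Pool and 67 in NT_Pool, or 9.20 and 2.89 CPM, a level 3.17-fold higher in 813Pool (log2 fold 1.66, 1.27 to 2.09). Records 1 to 9 of its 20 exon records, the starts and regulatory exons of the long forms, held no read in 813Pool. In NT_Pool records 5, 6 and 7 held 2, 2 and 1. Record 10 (chr1:66797793-66798303, hg19) was the first with more, at 32 and 7 reads, and every later record was higher in 813Pool, up to 253 and 77 reads in the last. In 813Pool the reads thus began at an internal start, 539600 bases downstream of the first record, while NT_Pool holds too few reads to place its start.

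RefSeq lists 6 start windows for PDE4B, and window 5, counted from the 5′ end, lies 539598 bases downstream of its first start, which matches record 10 by distance. This window (GRCh38.p14, chr1:66331858-66332157, plus strand) is shown because the reads of 813Pool begin there. The capital marks the start base.
PDE4B: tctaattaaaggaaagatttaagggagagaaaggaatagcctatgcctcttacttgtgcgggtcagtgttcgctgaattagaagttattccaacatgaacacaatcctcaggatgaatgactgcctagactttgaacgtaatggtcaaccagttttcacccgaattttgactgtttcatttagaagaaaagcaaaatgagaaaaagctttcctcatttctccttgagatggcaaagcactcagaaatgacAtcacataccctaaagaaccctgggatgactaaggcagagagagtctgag

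**Figure D3:**
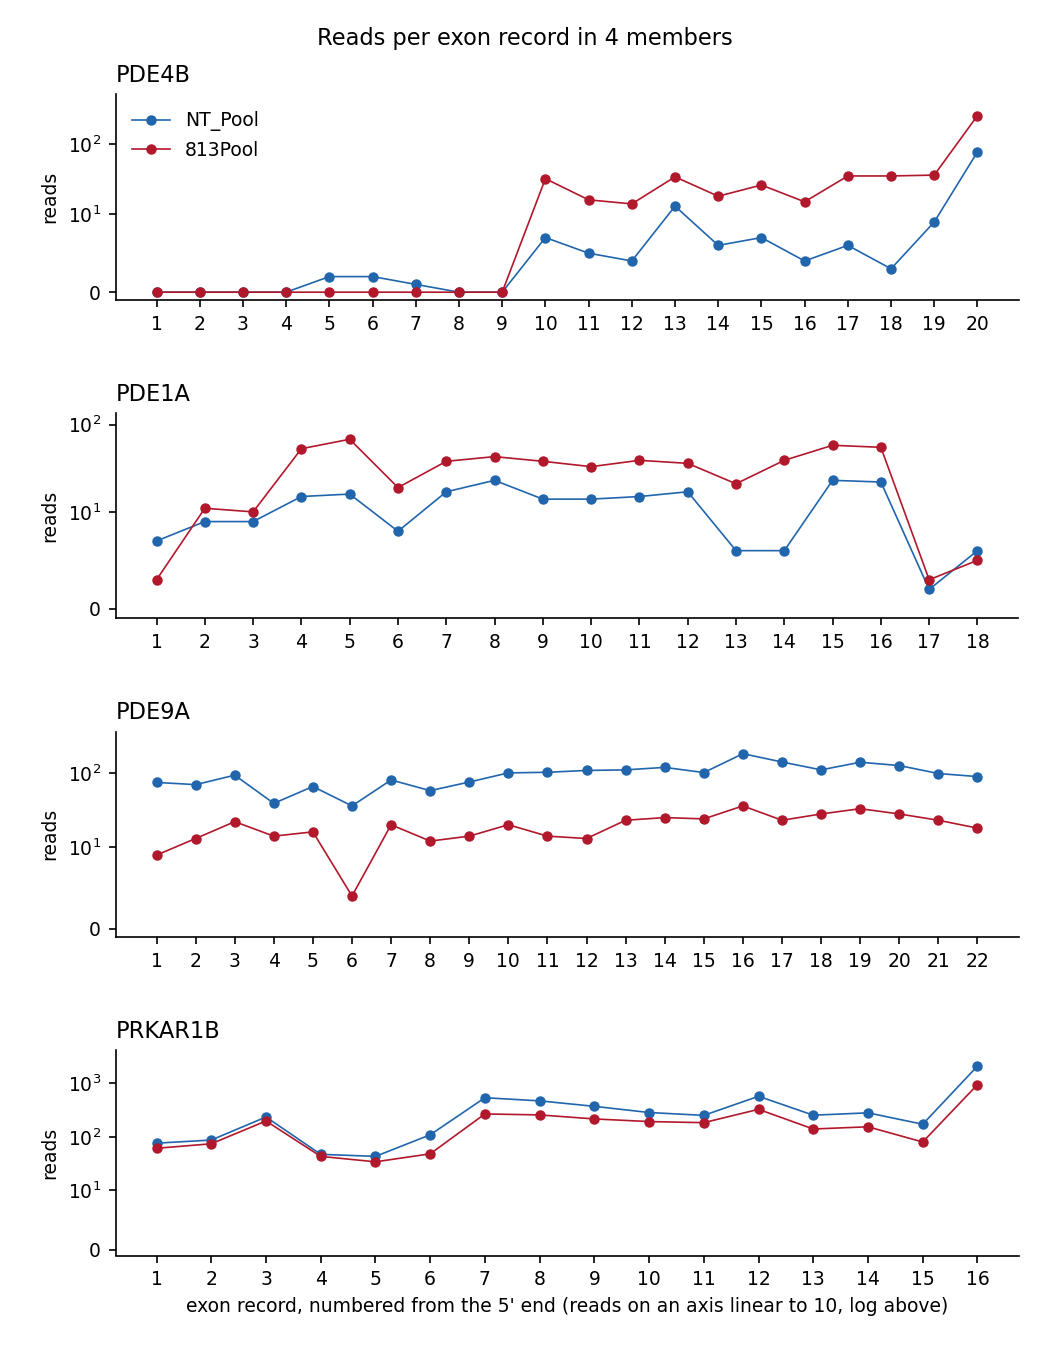
Reads in each exon record of PDE4B, PDE1A, PDE9A and PRKAR1B, numbered from the 5′ end, in the 2 libraries; the axis is linear to 10 reads and logarithmic above. PDE4B reads begin at record 10 in 813Pool, with 2, 2 and 1 reads upstream in NT_Pool, PDE1A parts from record 4 on, PDE9A is lower in all 22 records of 813Pool, and PRKAR1B parts more after record 5.

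PDE8A was the third phosphodiesterase called higher. PDE8A (chr15:85523744-85682376, hg19, plus strand) encodes a high-affinity cAMP-specific enzyme that common inhibitors such as IBMX do not block. It held 502 pairs in 813Pool and 230 in NT_Pool, or 20.5 and 9.91 CPM. The level was 2.07-fold higher in 813Pool (log2 fold 1.05, 0.82 to 1.28). Its 23 exon records with 20 reads or more were all higher, from 0.30 to 1.99, of which the last pair are nested and hold the same reads. The call ended after detrending on GC and length (0.62). PDE8B held 26 and 13 pairs, a log2 fold of 0.90 with an interval from -0.09 to 2.01.

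The other measured phosphodiesterases were not called. PDE7A, also cAMP-specific, held 217 and 116 pairs (log2 fold 0.83, 0.50 to 1.17), and 0.34 after detrending on GC and length. PDE6B and PDE6A encode the catalytic chains of the rod photoreceptor enzyme. PDE6B held 307 and 375 pairs (-0.36, -0.59 to -0.14), but these were not spread over the gene. None of its exon records 1 to 16 held more than 4 reads in 813Pool or 8 in NT_Pool, while records 17 to 22 held 39 to 90 and 42 to 127. The reads thus lay almost entirely at the 3′ end of the gene and do not show the full transcript. PDE6A held 46 and 40 pairs (0.12).

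Most phosphodiesterase genes under 1 CPM were close to absent at this depth. PDE4C held 20 and 13 pairs, with all 37 and 40 exon reads in the last of its 18 records, and PDE4D 13 and 14 pairs, in a gene that overlaps PART1. PDE7B held 15 and 7 pairs, PDE5A 9 and 5, and PDE6G 4 and 4. PDE5A, the target of sildenafil, had 54 of 56 exon reads in 813Pool and 59 of 63 in NT_Pool in its 3′ record, which overlaps LOC645513. PDE2A, PDE3A and PDE3B, enzymes through which cGMP stimulates or inhibits cAMP breakdown, each held 1 pair in NT_Pool and 4, 3 and 4 in 813Pool. PDE11A held 2 pairs and 0, PDE6C 1 and 0, and PDE10A and PDE6H none in either library.

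Grouped by the nucleotide they are known to hydrolyse, the catalytic phosphodiesterases differed in makeup. This grouping of 21 genes is textbook knowledge applied after the values had been seen, and its result is a description. The cAMP-specific enzymes (PDE4, PDE7 and PDE8) summed to 26.4 CPM per kilobase in 813Pool and 21.0 in NT_Pool, which was 67.5% and 43.5% of the catalytic phosphodiesterase level. The cGMP-specific enzymes (PDE5A, the catalytic PDE6 chains and PDE9A) summed to 6.47 and 18.3, or 16.6% and 37.8%. Without PDE6B, whose reads do not show the full transcript, they summed to 2.93 and 13.7, or 8.25% and 31.3% of the level then left. Enzymes that take both nucleotides summed to 6.20 and 9.04, or 15.9% and 18.7%. PDE9A and PDE8A, the high-affinity enzymes for cGMP and cAMP, stood in opposite order: per kilobase PDE8A stood at 1.98 times PDE9A in 813Pool and at 0.181 times in NT_Pool.

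**Figure D4:**
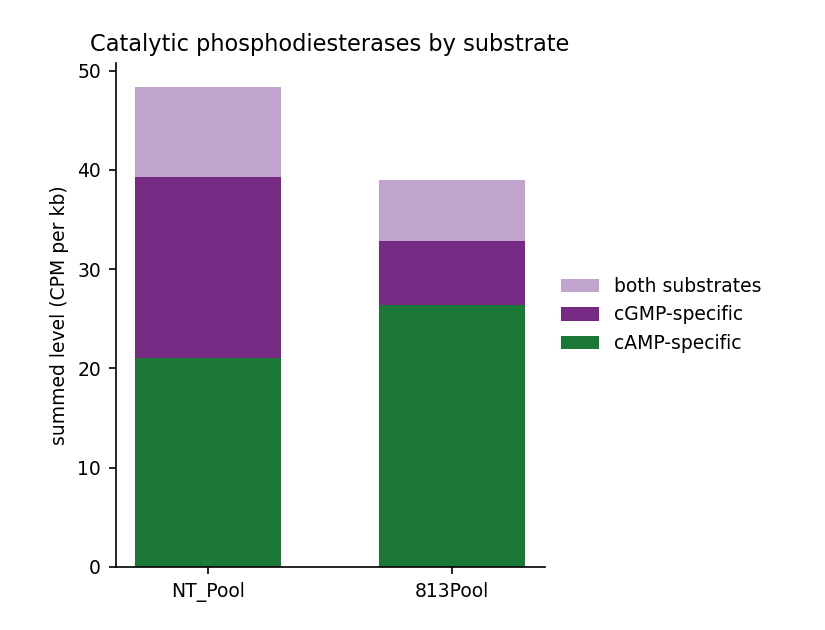
Summed level of the catalytic phosphodiesterases in each library, in CPM per kilobase from 0, split by the nucleotide hydrolysed. The cGMP-specific part is 6.47 in 813Pool and 18.3 in NT_Pool, and the cAMP-specific part 26.4 and 21.0.

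Anchoring proteins had 1 called gene among 9 measured of 14, a share of 11.1% against 11.6% of all measured genes. AKAP10 (chr17:19808750-19881129, hg19, minus strand), a dual-specificity anchor that binds type I and type II regulatory subunits, held 210 pairs in 813Pool and 77 in NT_Pool, or 8.59 and 3.32 CPM. It was 2.58-fold higher in 813Pool (log2 fold 1.37, 0.99 to 1.77), and above 0 in all 14 exon records with 20 reads or more. AKAP13 (chr15:85923871-86292586, hg19, plus strand), the next of these genes downstream of PDE8A on the chromosome, held 1363 and 669 pairs, or 55.7 and 28.8 CPM. Its log2 fold of 0.95 (0.82 to 1.09) stopped short of 2-fold, and all 37 exon records with 20 reads or more were above 0. It was called with plain totals (1.09), with totals without the 20 most abundant genes (1.08) and with the RPKM values (1.08). After detrending on GC and length it was 0.67.

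The most abundant anchors were nearly level. AKAP1, the anchor of the outer mitochondrial membrane, held 1403 and 1482 pairs (log2 fold -0.15), and AKAP8, a nuclear anchor, 1165 and 1011 (0.13). AKAP7 held 316 and 222 pairs (0.43, 0.18 to 0.69). AKAP12, the scaffold also called gravin, held 279 and 242 pairs (0.13), and its sign turned to -0.31 after detrending on GC and length. AKAP11 held 79 and 95 pairs (-0.34), and AKAP5, a postsynaptic anchor, 33 and 31 (0.01). AKAP9, the large anchor of the Golgi and centrosome, held 41 and 62 pairs (-0.67, -1.28 to -0.08) spread thinly over its records. AKAP3 and AKAP4, anchors of the sperm tail, held 7 and 6 pairs and none, AKAP6 held 0 and 1, and AKAP14 none.

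AKAP2 shows a limit of the gene table. The table lists 0 pairs for it in both libraries, but its 6 exon records held 215 reads in 813Pool and 62 in NT_Pool. Of these records 4 are identical to records of the read-through gene PALM2-AKAP2, which the gene table lists at 1 pair and 0. Reads in the shared records, 82 and 27 in record 3 and 127 and 30 in record 6, thus appear under neither gene in the gene table. By exon sums, a measure added after the data were seen, the AKAP2 records were 3.26-fold higher in 813Pool (log2 fold 1.70, 1.13 to 2.34). Most of these reads lie in the shared records, so the fold cannot be assigned to AKAP2 rather than to PALM2-AKAP2. AKAP2 is not among the 4 members called from the gene table.

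GC content moved with the direction of the calls. The 4 genes called higher had a GC content from 37.1% for PDE1A to 43.2% for PDE4B, and the 3 called lower from 50.8% for PDE1B to 62.4% for PRKAR1B. Over all measured genes with a GC value, those of 42 to 46% GC had a median log2 fold of 0.42 and those of 62 to 66% one of -0.30. The medians did not fall steadily with GC, since genes of 34 to 38%, where PDE1A lies, had one of 0.07. After detrending the log2 folds were 1.18 for PDE4B, 1.33 for PDE1A, 1.02 for AKAP10, -1.49 for PDE1B and -2.19 for PDE9A, and all 5 calls stayed. Those of PDE8A and PRKAR1B ended, as given above. What the trend itself reflects was not tested.

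**Figure D5:**
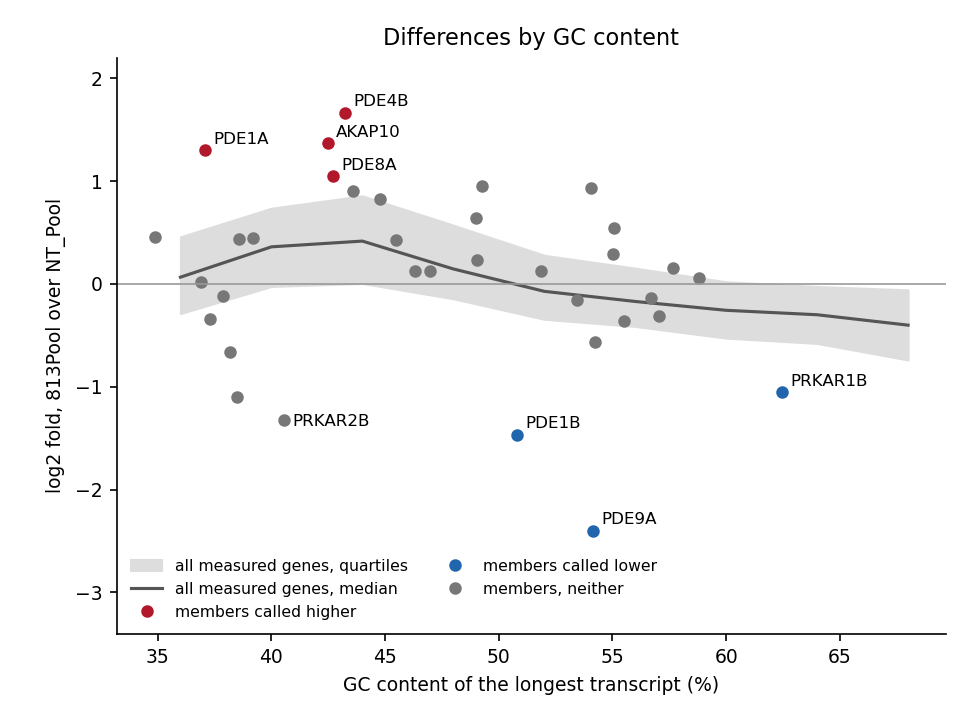
Log2 fold, 813Pool over NT_Pool, against GC content of the gene in percent, with the median and quartiles of all measured genes in bins and the measured members as points. The bin medians lie at 0.07 for 34 to 38% GC, at 0.42 for 42 to 46% and at -0.30 for 62 to 66%.

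Upstream of the cyclases, genes that were no members were read from lists chosen for their place in the pathway. Over all of these lists 55 of 125 genes were measured, 10 were higher and 2 lower in 813Pool, beside the 8.13% and 3.48% of all measured genes, and the median log2 fold was 0.22. Of 43 receptors known to couple to the stimulatory G protein, 9 were measured, 4 were higher and none lower, to be read against the same shares. The adenosine receptor ADORA2A held 1374 and 482 pairs (log2 fold 1.43, 1.29 to 1.59) and ADORA2B 254 and 84 (1.52, 1.16 to 1.89). The prostaglandin E2 receptor PTGER4 held 58 and 11 pairs (2.27, 1.38 to 3.40), and the vasopressin receptor AVPR2 45 and 12 (1.79, 0.89 to 2.89). Of 7 alpha subunits of stimulatory and inhibitory G proteins, 5 were measured and 1 was called, GNAZ with 400 and 180 pairs (1.07, 0.82 to 1.34). GNAS, the stimulatory subunit itself, held 51404 and 67808 pairs (-0.48, -0.49 to -0.46).

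On the cGMP side 4 of 14 genes were measured, and the called one was lower, beside 3.48% of all measured genes called lower. NOS1, the neuronal nitric oxide synthase that makes the activator of soluble guanylyl cyclase, held 3198 and 9465 pairs, or 131 and 408 CPM (log2 fold -1.64, -1.70 to -1.58). The other measured genes of this list were not called and lay on both sides of 0. NPR2 held 49 and 70 pairs (-0.59, -1.15 to -0.04), NPR1 24 and 26 (-0.19, -1.05 to 0.67) and NOS3 61 and 46 (0.33, -0.24 to 0.92). The cGMP-dependent kinases PRKG1 and PRKG2 held no pairs, nor did GUCY1B3, the beta subunit that soluble guanylyl cyclase needs. NOS1 and PDE9A were thus both lower in 813Pool, in cells where those kinases were not detectable at this depth.

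Downstream, 7 of 18 other effectors and efflux genes were measured, with 2 higher and 1 lower. This count and those of the next lists are to be read against the 8.13% and 3.48% of all measured genes called. RAPGEF3, the cAMP-activated exchange factor EPAC1, held 147 and 66 pairs (1.07, 0.65 to 1.52), and POPDC2, a cAMP-binding Popeye protein, 40 and 9 (2.02, 1.01 to 3.31). HCN3, a channel of the HCN family, held 146 and 283 pairs (-1.03, -1.33 to -0.74). Its more abundant relative HCN2 was not called and lay above 0, with 1711 and 1287 pairs (0.34, 0.23 to 0.44). All 8 genes of the CREB family and its coactivators were measured and none was called, with a median log2 fold of 0.05. Of 22 genes known to be induced through CREB, 14 were measured, with a median of 0.07. ID1 (977 and 329 pairs, 1.49) and SCG2 (123 and 56 pairs, 1.05) were higher and none was lower. The early-response genes of the list, named here after their values were seen, were not called and lay on both sides of 0. FOS held 304 and 441 pairs (-0.61) and its relative FOSB 75 and 33 (1.10). NR4A1 held 237 and 378 pairs (-0.75) and its relative NR4A3 82 and 36 (1.10), while SIK1 held 263 and 145 (0.78). JUNB held 1019 and 847 pairs (0.19), DUSP1 317 and 311 (-0.05) and PER1 1418 and 2055 (-0.61). NR4A2 was under 1 CPM with 13 and 9 pairs. Among 13 anchoring proteins outside the AKAP symbols, 8 were measured and 1 was higher, SYNM, an intermediate filament protein, with 566 and 76 pairs (2.81, 2.47 to 3.19).

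The promoters of the members were searched for letters of the cAMP response element and of the RUNX motif. RefSeq (GRCh38.p14) gave 119 windows of 300 bases, 250 before and 50 after a start, for 47 of the 58 members. The full palindrome, TGACGTCA, stood in 4 windows of 3 genes, PDE4A, PDE7B and PRKAR1A, which is 3.36% of member windows against 1.85% of all 35116 windows. None of the 26 windows of the 6 called members with a window held it. The called member PDE9A had no window and was not searched. The shorter motif TGACG, which the palindrome contains, stood on either strand in 26.1% of member windows and 24.6% of all. The RUNX letters TGTGGT stood in 11.8% of member windows and 13.1% of all, and among the called members in 1 of 26, at PDE1A. Counted per gene, where a gene with several windows needs a match in any one of them, TGACG stood in 46.8% of the 47 members and 28.4% of all 27305 genes, and TGTGGT in 29.8% and 15.6%. Members had 119 windows for 47 genes and all genes 35116 for 27305, so the members had more windows a gene. A match is a run of letters, not a site shown to be bound.

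A window with the full palindrome is printed for each of the 3 genes, which are the only members whose windows held it. The capitals mark the palindrome, and the other matching window, also of PRKAR1A, overlaps the one shown. They are PRKAR1A (chr17:68512180-68512479, plus strand), PDE4A (chr19:10416523-10416822, plus strand) and PDE7B (chr6:135851451-135851750, plus strand), all in GRCh38.p14.
PRKAR1A: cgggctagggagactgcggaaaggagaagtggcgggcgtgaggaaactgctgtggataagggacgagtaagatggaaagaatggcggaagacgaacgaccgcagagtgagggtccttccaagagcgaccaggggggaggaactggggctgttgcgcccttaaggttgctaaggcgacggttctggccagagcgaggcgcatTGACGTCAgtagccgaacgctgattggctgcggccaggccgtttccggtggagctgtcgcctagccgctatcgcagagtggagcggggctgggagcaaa
PDE4A: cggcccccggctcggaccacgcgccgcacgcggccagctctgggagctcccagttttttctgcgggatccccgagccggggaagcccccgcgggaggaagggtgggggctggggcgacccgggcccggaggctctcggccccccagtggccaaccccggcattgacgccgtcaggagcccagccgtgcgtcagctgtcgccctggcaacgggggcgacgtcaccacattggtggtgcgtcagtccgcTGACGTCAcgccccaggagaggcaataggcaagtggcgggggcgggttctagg
PDE7B: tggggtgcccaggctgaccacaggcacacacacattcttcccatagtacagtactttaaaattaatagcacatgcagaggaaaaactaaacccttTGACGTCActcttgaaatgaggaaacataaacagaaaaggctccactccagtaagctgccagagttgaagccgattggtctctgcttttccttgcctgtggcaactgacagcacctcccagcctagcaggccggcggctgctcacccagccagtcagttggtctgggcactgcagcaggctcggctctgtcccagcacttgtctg

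Of these 3 genes PRKAR1A had a log2 fold of 0.45 and PDE4A of 0.06, and PDE7B was under 1 CPM. The PDE4A window is the first of that gene's starts, and the first exon record of PDE4A held 0 and 3 reads while record 4 held 317 and 260. So the printed PDE4A start carried little of the reads in either library. In PRKAR1A the exon records up to the seventh lay between -0.13 and 0.29, and the last, which is the longest, at 0.67 with 1069 and 638 reads.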

How the data were processed

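Poly(A) RNA of A673 cells was sequenced, with 1 library for each of 2 conditions. Per the submitters' processing notes the authors used CASAVA 1.9, TopHat2 2.0.6 and HTSeq with genome build hg19; the annotation, use of strand and any filter were not given in the sources used here. Per the file headers the deposited tables give, for genes and for exons, raw counts and RPKM. All deposited gene counts are even, while 36.4% and 35.5% of exon counts are odd, so gene counts were halved to pairs, though the design had assumed counts as deposited.

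Dropping 46 repeated rows left 23352 genes. Totals were scaled by TMM (edgeR 4.0.16, R 4.3.3; factors 1.05 and 0.954 for 813Pool and NT_Pool). A log2 fold adds a prior of 0.5 pairs. Its interval is the exact 95% Clopper-Pearson interval of the paired counts (scipy 1.17.1) and leaves out all but counting error, PCR copies being no independent molecules. A count of 0 allows up to 3 pairs. Levels are compared between genes per kilobase, and exon folds are from halved reads. Exon records needed 50 reads in a gene of 200 to be tested against the rest of their gene. GC content came from the GENCODE 29 transcripts and had values for 90.0% of measured genes and all 35 measured members. Gene length was the length listed in the deposited gene tables.

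Groups came from the sample titles. The members and lists were chosen with earlier results of these data known. All measured members are named, with up to 4 called genes in each direction from each other list. Alternatives were plain totals, totals without the 20 most abundant genes, DESeq2 1.42.0 size factors, the deposited RPKM ratio, undivided counts, no filter, a 5 CPM filter, a prior of 5 pairs, a 1.5-fold rule, a GC and length trend removed, and, added after the data were seen, exon sums and substrate sums without PDE6B.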

Additional observations from a re-analysis of the deposited data

How the results depend on the processing

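No paired analysis was possible because each condition has 1 library, and for the same reason no replicate could be left out. The 4 members called higher were 3 to 6 under the other scalings, filters and values, and 7 with the 1.5-fold rule. The 3 called lower were 2 to 4, the 4 with undivided counts, which enter each pair as 2. They were 6 with the 1.5-fold rule, which called 19.8% and 11.2% of all measured genes higher and lower. The genes of the other pathway lists called lower were 2, and 1 with plain totals, 1 with totals without the 20 most abundant genes and 1 with the GC and length trend removed; those called higher were 10, with a range of 7 to 13. Plain totals moved the median log2 fold of the members from 0.13 to 0.26. The causes were not tested. With 100 or 20 reads as the minimum, 1 exon record still departed. Depth limits the 23 members under 1 CPM, whose intervals are wide or which hold no pairs.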
